A study of Mus musculus with 8 samples.

Results

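The translation initiation factors (eIFs) and elongation factors (eEFs) are the proteins that load the ribosome onto mRNA and drive it along the message. They were taken here as all genes whose platform symbol starts with Eif or Eef, leaving out the kinases and the methyltransferases that act on them. The rule found 55 genes among the 17711 that the platform annotation names. RNA had been measured on Illumina bead arrays in 8 samples from the distal colon of wild-type C57BL/6 mice, labelled male and 10 to 12 weeks old. Of these, 4 samples held epithelial cells of the crypt surface and 4 held cells of the crypt base, both isolated by laser capture microdissection, with RNA amplified in successive rounds. Each of 4 mice had given both, per the design text, and samples of the same number, 1 to 4, were treated as a pair. All animals were untreated and of a single genotype.

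Initiation begins when eIF2, carrying the initiator tRNA, joins the small ribosomal subunit together with eIF1, eIF1A and the large scaffold eIF3. The eIF4 proteins bind the cap and unwind the leader of the mRNA, and the 4E-BP proteins hold back the cap-binding protein eIF4E. In elongation eEF1A brings each charged tRNA, the other eEF1 subunits recharge eEF1A with nucleotide, and eEF2 moves the ribosome on. In the colon the crypt base holds the dividing cells and the surface the differentiated ones, and dividing cells are known for a high demand for protein synthesis.

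The markers of the captured regions were read first. Their lists were chosen with earlier results of these data known, so the counts are no independent check of the capture. Of the 8 surface colonocyte markers tested all 8 were higher at the surface, and all 6 crypt base markers tested were lower there. The shares over all 12146 genes tested were 9.17% higher and 7.38% lower. The crypt base list held 10 markers, of which 8 were named by the platform annotation. Its markers Lgr5 and Ascl2 were too dim to be tested. Of 9 epithelial markers tested, 5 rose at the surface, with a median change of 0.57, and their summed linear signal was 13432 to 15029 at the surface and 7953 to 10552 at the crypt base, without overlap. The cytokeratin gene Krt8 rose by 0.79 ± 0.13, while the cadherin gene Cdh1 had a change of 0.39 ± 0.13 and did not pass (adjusted p = 0.109). Epcam lay near the array median in both regions, with mean log2 signals of 5.68 at the surface and 5.40 at the crypt base, and Krt20 was too dim to be tested. Markers of other cell types were present too. The summed linear signal of 10 smooth muscle markers ranged from 3045 to 14899 at the surface and from 7874 to 30931 at the crypt base. Their median change was -0.80 and 0 of 10 passed the test in limma, while 6 of the 10 had an unadjusted p under 0.05. Of all 12146 genes tested 3747 had an unadjusted p under 0.05 in limma, a count of both directions together. For 10 fibroblast markers the sums were 2430 to 3179 at the surface and 2211 to 4077 at the crypt base, for 8 leukocyte markers 2023 to 7100 at the surface and 2081 to 5413 at the crypt base, and for 9 endothelial markers 1434 to 1819 at the surface and 1228 to 1586 at the crypt base. No defining marker is read at 0 on such arrays, whose signals have a floor above it. The part of these marker differences in the changes below was not tested, and in a bulk sample fewer cells of a type and less RNA per cell cannot be told apart. Surface 4 stood apart, with 199 probes over 2 log2 units away from the other arrays' median and 184 of those on the low side, while each other array had 6 to 34.

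One member of the family went against the label of the mice. Eif2s3y, the Y-linked gene for the gamma subunit of eIF2, had log2 signals of 4.97, 4.84, 5.03 and 8.93 in surface samples 1 to 4, against 4.88, 5.15, 4.69 and 8.76 in crypt base samples 1 to 4. Only the samples numbered 4 were above 5.31, the median signal of all probes on an array. Kdm5d, another Y-linked gene, had signals of 4.99, 4.67, 4.58 and 6.18 at the surface and 4.67, 5.05, 5.19 and 6.02 at the crypt base. Xist, the RNA that coats the inactive X chromosome of females, had the opposite pattern, with 8.42, 9.01, 7.88 and 5.70 at the surface and 8.62, 9.52, 9.58 and 5.82 at the crypt base. These are the probes with the highest value in any sample, and the other probes of Eif2s3y and Kdm5d stayed between 5.03 and 5.38 in all 8 samples. On the probes shown, the samples labelled male with numbers 1 to 3 had both Y-linked genes below that median and a high Xist signal, in both regions. Eif2s3x, the X-linked partner of Eif2s3y, was measured at 6.42 to 7.03 at the surface and 6.85 to 7.17 at the crypt base, with no gap between number 4 and the others. Since both regions of a number matched, this pattern did not differ between the groups compared, and results are also given without number 4.

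**Figure D1:**
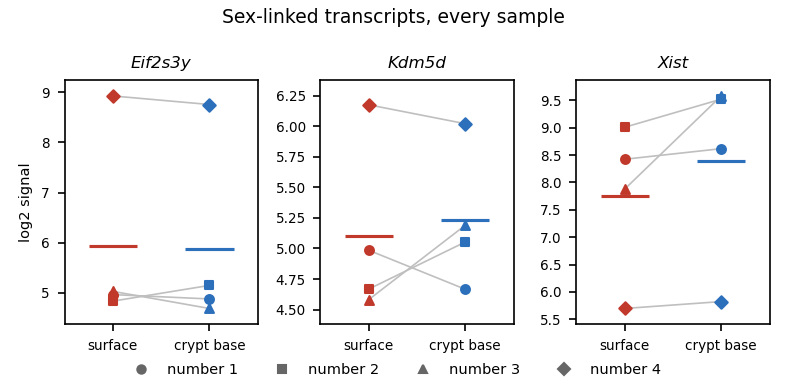
Log2 signal (vertical axis) of Eif2s3y, Kdm5d and Xist (for each, the probe with the highest value in any sample) in surface samples (red, left) and crypt base samples (blue, right). Each marker shape is a replicate number, grey lines join same-numbered samples and horizontal bars are group means; number 4 stands apart in both regions, with Eif2s3y at 8.93 and 8.76 and Xist at 5.70 and 5.82.

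Of the 55 genes, 51 had a signal above their array's median on at least 4 of the 8 arrays and were tested. The 4 genes not tested were Eif2s3y, Eif3m, Eif4e1b and Eif5a2, which encode further eIF2, eIF3, cap-binding and eIF5A proteins. A gene that is dim in 1 region only may have been kept by this filter through the other region, so the 51 are not the whole family. Eif1, Eif2s1, Eif3g and Eif4g1 were not among the 55 genes found by the rule, so these family members were not read. Changes are log2 differences, surface minus crypt base, each with the standard error (SE) of the limma fit to 4 pairs. This SE is moderated, as limma draws each gene's variance toward that of all genes tested. It is therefore not the spread of that gene's 4 pairs alone. A gene is said to have risen or fallen where its Benjamini-Hochberg adjusted p in limma was under 0.05.

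At the surface, 10 of the 51 genes fell and 3 rose, and the genes that fell were mainly subunits of eEF1 and eIF3. Of the factor genes tested 19.6% fell and 5.88% rose, and of all 12146 genes tested 7.38% fell and 9.17% rose (16.5% in either direction). The median change of the 51 genes was -0.18, and that of all genes tested was -0.0074. Changes lay below 0 in 37 of the 51 genes (72.5%), compared with 51.9% of all genes tested. The quartiles of the change were -0.40 and 0.01 for the factor genes and -0.15 and 0.12 for all genes. The changes were small on the whole, with only Eif2s2 past 2-fold.

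**Figure D2:**
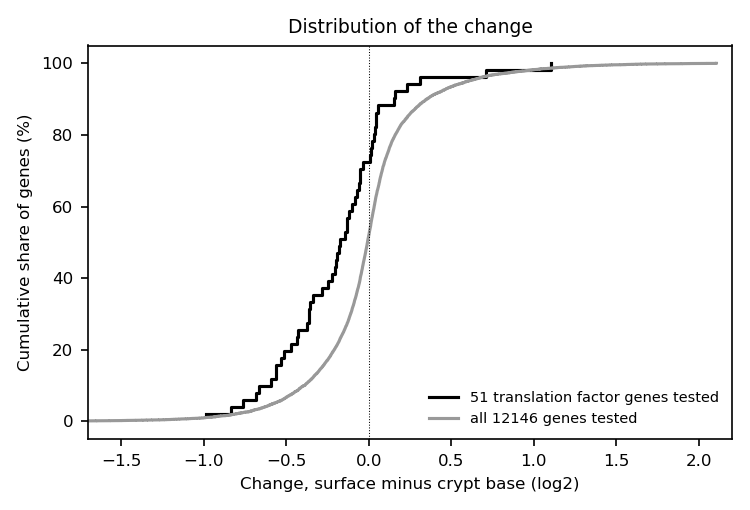
Cumulative share of genes (vertical axis, percent) against the change, surface minus crypt base (horizontal axis, log2), for the 51 translation factor genes tested (black) and all 12146 genes tested (grey). The black curve lies to the left of the grey one between the quartiles and crosses 0 at 72.5%, against 51.9% for all genes.

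The pairs did not contribute alike. The median change of the 51 genes was -0.14 in pair 1, -0.0067 in pair 2, -0.24 in pair 3 and -0.17 in pair 4, while the median of all genes tested stayed between -0.0095 and 0.016. All 13 genes that passed the test moved the same way in all 4 pairs. They were picked by a test on those same pairs, so neither this nor the lack of overlap given below is further support. Among the 51 factor genes 29.4% were lower and 9.8% higher in every pair, and over all genes tested these shares were 19.1% and 19%. In 10 of the 13 the surface and crypt base values did not overlap. Counted over all 51 genes, the surface was lower without overlap in 10 (8.08% of all genes tested were) and higher without overlap in 2 (8.19% of all genes tested were).

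These counts depended on the pairing and on single pairs. Without the replicate block 5 genes fell and 2 rose, while 4.54% of all genes tested fell and 5.48% rose. When replicate 1 was left out 0 genes on the array passed in limma. In that fit 2743 of the 12146 genes tested had an unadjusted p under 0.05, a count of both directions together. Among the 51 factor genes 11 were lower and 3 higher at that level. Leaving out replicate 2 gave 14 falls and 2 rises, while 9.44% of all genes tested fell and 9.46% rose. Leaving out replicate 3 gave 4 falls and 2 rises, while 2.63% of all genes tested fell and 4.83% rose. Without replicate 4 there were 1 fall, that of Eef1g, and 2 rises, those of Eif2s2 and Eif4ebp3, while 0.93% of all genes tested fell and 3.94% rose. In each of these fits the 13 genes kept their direction, which could not turn as all 4 pairs had the same sign.

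**Figure D3:**
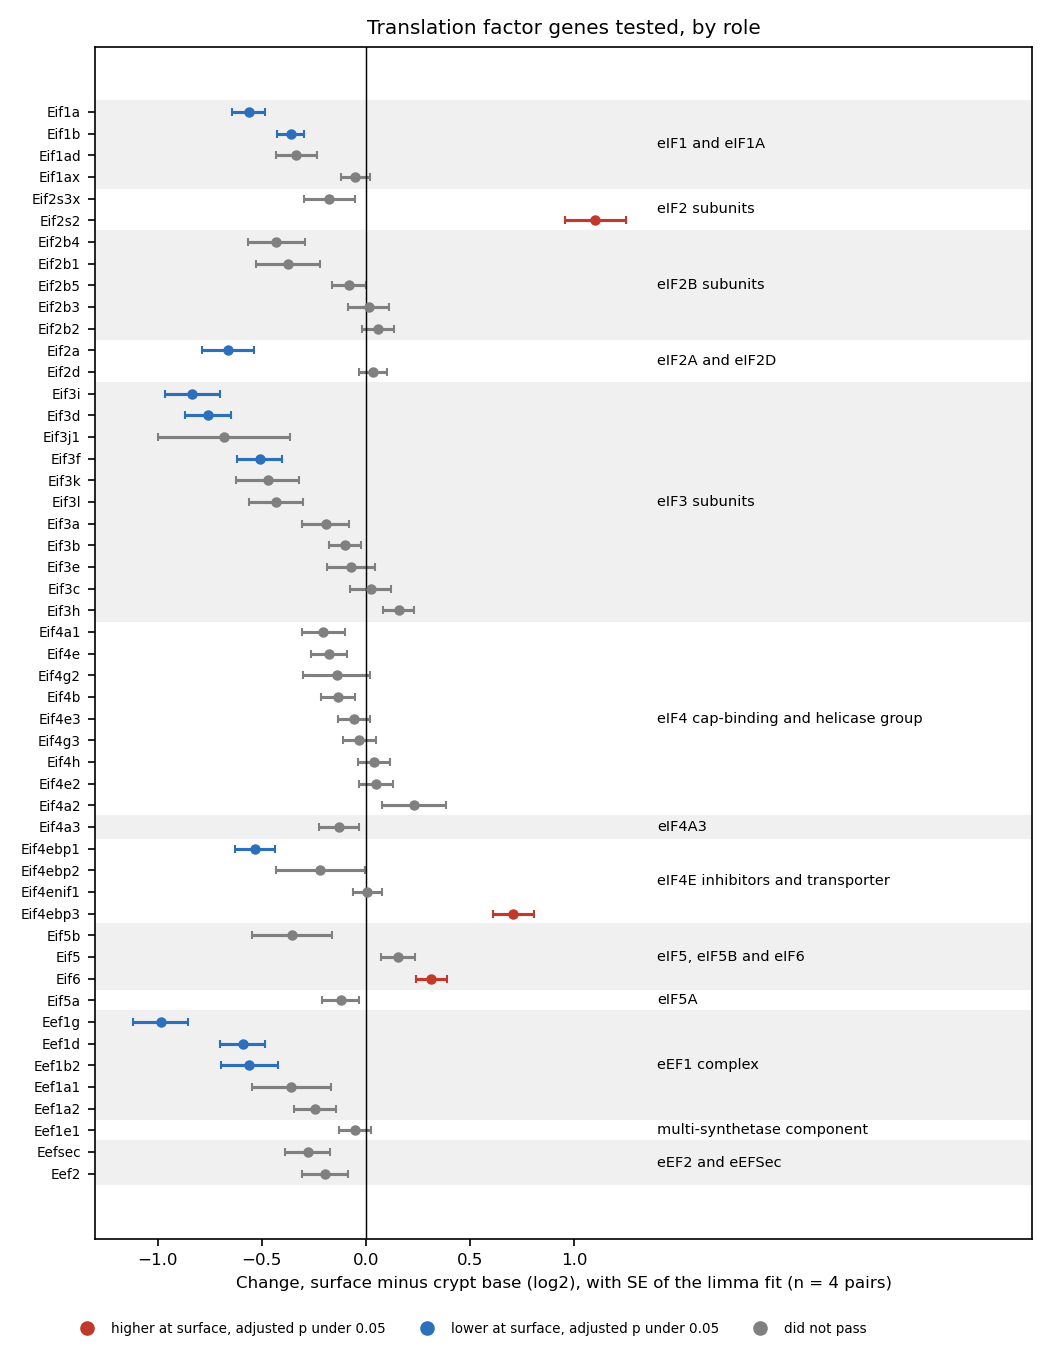
Change, surface minus crypt base (horizontal axis, log2), with the SE of the fit (bars, n = 4 pairs) for the genes tested other than the pseudogene Eif2s3x-ps1, grouped by role. Genes that fell are blue, genes that rose are red and those that did not pass are grey; the eEF1 complex and eIF3 hold 6 of the 10 falls, with Eef1g at -0.99, and Eif2s2 has the largest rise at 1.10.

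The eEF1 complex delivers aminoacyl-tRNA to the ribosome, and 3 of its 5 genes tested fell while 0 rose. All 5 changes were below 0, with a median of -0.56. Eef1g, the gamma subunit that anchors the exchange factors, had log2 signals of 12.00, 12.31, 11.95 and 12.02 in surface samples 1 to 4, against 13.33, 12.87, 13.06 and 12.98 in crypt base samples 1 to 4. Every surface value was lower than every crypt base value, and pair 2 differed least. Its change was -0.99 ± 0.13 (SE, n = 4 pairs), which is 1.98-fold lower at the surface (adjusted p = 0.0106). Eef1d, a nucleotide exchange subunit, had 10.85, 11.09, 10.86 and 10.96 at the surface and 11.66, 11.33, 11.52 and 11.62 at the crypt base. These groups did not overlap either, and the change was -0.59 ± 0.11 (adjusted p = 0.0196). Eef1b2, the other exchange subunit, had 8.94, 9.93, 9.72 and 9.84 at the surface and 9.84, 10.03, 10.44 and 10.36 at the crypt base. The groups overlapped, though the surface was the lower member of every pair, by only 0.10 in pair 2, and the change was -0.56 ± 0.14 (adjusted p = 0.0422).

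The eEF1A genes encode the carrier itself, and neither passed the test. Eef1a1, the form found in most cells, had 11.68, 12.70, 12.57 and 12.92 at the surface and 12.80, 12.75, 12.63 and 13.14 at the crypt base. Surface 1 was far below the rest, and pair 1 differed by -1.11 while the other pairs differed by -0.05 to -0.22. The change was -0.36 ± 0.19 (adjusted p = 0.273), and its second bright probe had a change of -0.27. Eef1a2, the form of muscle and nerve, lay near the median of all probes, with 5.48, 5.53, 5.63 and 5.22 at the surface, against 5.78, 6.04, 5.59 and 5.45 at the crypt base (change -0.25 ± 0.10, adjusted p = 0.161). Eef1e1, which despite its name encodes a component of the multi-synthetase complex and is not counted among the 5, had 5.32, 5.65, 5.64 and 5.69 at the surface and 5.28, 5.70, 5.87 and 5.64 at the crypt base. These values overlapped (change -0.05 ± 0.08), and the sign turned without replicate 3 (0.0094). The second probes of Eef1b2 and Eef1d were dimmer and had changes of -0.13 and -0.10. Eef1g passed in each fit other than the one without replicate 1 (adjusted p = 0.0557). Eef1d did not pass without replicate 3 (adjusted p = 0.0667) or replicate 4 (0.0743), and Eef1b2 did not pass without the block (0.184), without replicate 3 (0.126), without replicate 4 (0.117) or with a random block (0.0773).

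Neither gene of the remaining elongation steps passed. Eef2, the translocase, had 9.08, 9.70, 9.69 and 9.93 at the surface and 9.55, 9.54, 9.92 and 10.18 at the crypt base, with the surface higher in pair 2 and lower in the others. Its change was -0.20 ± 0.11 (adjusted p = 0.297), and 2 dimmer probes had changes of 0.05 and -0.07. Eefsec, which brings the selenocysteine tRNA, had 6.11, 5.94, 5.78 and 5.87 at the surface and 6.28, 5.93, 6.20 and 6.43 at the crypt base. Its values overlapped, with a change of -0.28 ± 0.11 (adjusted p = 0.146). Eif5a, named as an initiation factor but acting in elongation and carrying the amino acid hypusine, had 8.49, 8.82, 8.52 and 8.64 at the surface, against 8.50, 8.93, 8.91 and 8.61 at the crypt base. The groups overlapped and the change was -0.12 ± 0.09 (adjusted p = 0.435). Its relative Eif5a2 was above the median of all probes on 2 of 8 arrays.

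**Figure D4:**
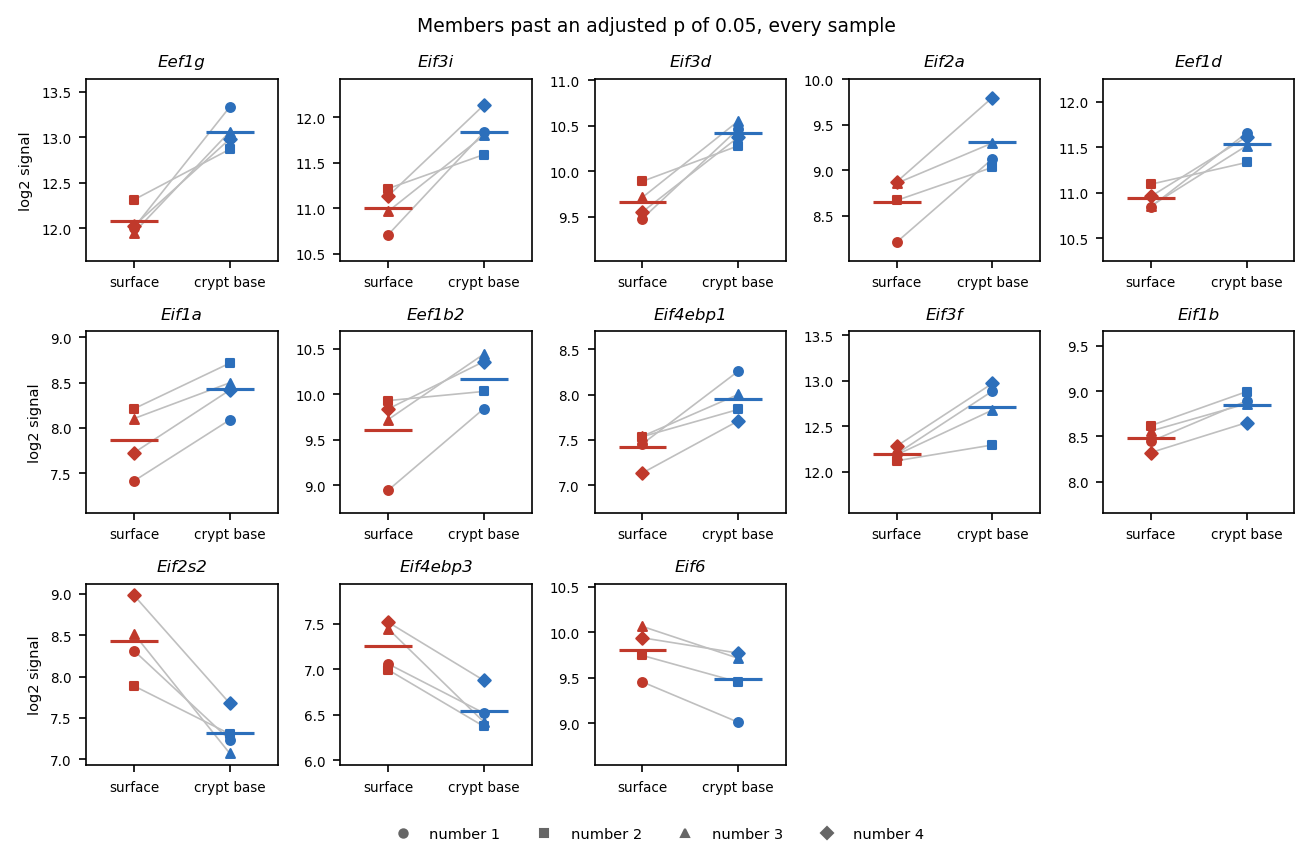
Log2 signal (vertical axis, a different range in each panel) of the 13 genes that passed the test, in surface samples (red, left) and crypt base samples (blue, right). Each marker shape is a replicate number, grey lines join same-numbered samples and horizontal bars are group means; the lines run the same way in all 4 pairs of each gene.

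eIF3 is the scaffold on the small subunit, and of its 11 genes tested 3 fell, 0 rose and 8 did not pass. The median change was -0.43 and 9 changes were below 0. Eif3i had log2 signals of 10.71, 11.22, 10.97 and 11.13 at the surface and 11.84, 11.59, 11.80 and 12.14 at the crypt base. No value of the surface reached the crypt base range, and the change was -0.83 ± 0.13, or 1.78-fold lower (adjusted p = 0.0147). Its dimmer probes had changes of -0.31, -0.16 and 0.03. Eif3d, a subunit able to bind the cap of some mRNAs, had 9.48, 9.89, 9.71 and 9.55 at the surface and 10.46, 10.28, 10.55 and 10.37 at the crypt base. The surface was lower without overlap, with a change of -0.76 ± 0.11 (1.69-fold, adjusted p = 0.0121). Eif3f had 12.20, 12.12, 12.19 and 12.28 at the surface and 12.89, 12.29, 12.68 and 12.97 at the crypt base. Its surface values were close together and crypt base 2 lay just above them, and the change was -0.51 ± 0.11 (adjusted p = 0.0272). Without replicate 4 none of the 3 passed (adjusted p = 0.0573 for Eif3i, 0.0504 for Eif3d and 0.0995 for Eif3f), and without replicate 3 only Eif3d did (0.0457, against 0.0507 for Eif3i and 0.0794 for Eif3f). Eif3f had an adjusted p of 0.0578 without the block.

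The other eIF3 genes spanned a wide range. Eif3j1, which encodes a loosely bound subunit, had the largest change among genes that did not pass, with 7.80, 7.99, 6.95 and 6.29 at the surface and 7.86, 8.52, 8.92 and 6.47 at the crypt base. Its change of -0.68 ± 0.32 (adjusted p = 0.213) came mostly from pair 3, which differed by -1.97, and without replicate 3 it was -0.26. Its second probe had a change of -0.08. Eif3k and Eif3l, peripheral subunits, had changes of -0.47 ± 0.15 and -0.43 ± 0.13 (adjusted p = 0.0893 and 0.0751), and in both the surface was lower in pairs 1, 3 and 4 and higher by 0.05 in pair 2. Without replicate 2 their adjusted p was 0.0184 and 0.0102. Eif3a, Eif3b and Eif3c, of the core, had changes of -0.19, -0.10 and 0.02. Eif3e and Eif3h were at -0.07 and 0.16. These 5 had mean signals between 5.61 and 6.52, and the median of all probes was 5.31. Low on the scale a log2 change can understate a difference, and whether it did so here was not tested.

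The group of eIF1 and eIF1A, which help the small subunit find the start codon, included 2 falls among 4 genes tested. Eif1ad was placed in it by its symbol and does not encode eIF1 or eIF1A. Eif1a had 7.42, 8.21, 8.10 and 7.73 at the surface and 8.09, 8.71, 8.50 and 8.42 at the crypt base. The groups overlapped, with levels that differed between numbers, and each pair was lower at the surface by 0.39 to 0.69. The change was -0.56 ± 0.08 (adjusted p = 0.0115). Eif1b, a close relative of Eif1, had 8.45, 8.62, 8.56 and 8.32 at the surface and 8.89, 8.99, 8.86 and 8.65 at the crypt base. These values did not overlap, and the change was -0.36 ± 0.07 (adjusted p = 0.0197). Eif1ad had a change of -0.33 ± 0.10 (adjusted p = 0.0685) and the X-linked Eif1ax one of -0.05 ± 0.07. Without the block Eif1a had an adjusted p of 0.119 and Eif1b of 0.0525. Without replicate 4 they had 0.0504 and 0.0744, and Eif1b had 0.0554 without replicate 3 and 0.0547 with an intensity trend in the variance.

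The genes of initiator tRNA delivery moved in opposite directions. Eif2s2, the beta subunit of eIF2, had 8.31, 7.89, 8.52 and 8.98 at the surface and 7.24, 7.31, 7.07 and 7.68 at the crypt base. All surface values were above all crypt base values, with a change of 1.10 ± 0.15, or 2.15-fold higher (adjusted p = 0.0106). Its second, dimmer probe had a change of 0.67. Eif2s3x, the gamma subunit, had a change of -0.18 ± 0.12 (adjusted p = 0.410), and the pseudogene Eif2s3x-ps1, near the median of all probes, had 5.30, 5.40, 5.30 and 5.64 at the surface and 5.39, 5.05, 5.46 and 5.55 at the crypt base (change 0.04 ± 0.10). Eif2a, which can deliver the initiator tRNA in place of eIF2 and is no subunit of it, had 8.21, 8.67, 8.86 and 8.87 at the surface and 9.13, 9.03, 9.30 and 9.80 at the crypt base. It was lower at the surface without overlap (change -0.66 ± 0.12, adjusted p = 0.0208), and its second probe had a change of -0.49. Eif2d, which can also place a tRNA without eIF2, had a change of 0.03 ± 0.07. The fall of Eif2a was lost in the unblocked fit (adjusted p = 0.0802) and in the fit lacking replicate 4 (0.0739), while Eif2s2 passed in both.

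eIF2B recharges eIF2 with nucleotide, and 0 of its 5 genes tested passed in limma, with an unadjusted p under 0.05 in 2. That level was reached by 3747 of all 12146 genes tested, in both directions together. The changes of the 5 eIF2B genes ran from -0.43 to 0.06. The largest was that of Eif2b4, with 7.24, 7.73, 7.62 and 7.75 at the surface and 8.07, 7.73, 8.06 and 8.21 at the crypt base. Pair 2 had no difference to 2 decimals, and the change was -0.43 ± 0.14 (adjusted p = 0.0836). Without replicate 2 the adjusted p of Eif2b4 was 0.0261. Eif2b1 had a change of -0.38 ± 0.15 (adjusted p = 0.160), lower at the surface in every pair and most in pair 4, by 0.85.

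In the eIF4 group, which recruits the mRNA, 0 of 9 genes tested passed in limma in either direction. Of the 9, 0 had an unadjusted p under 0.05 in limma, while 3747 of all 12146 genes tested did. The changes of the 9 genes ran from -0.20 to 0.23. The 9 genes were Eif4a1 and Eif4a2 (helicases), Eif4b and Eif4h (helicase partners), Eif4e, Eif4e2 and Eif4e3 (cap binding), and Eif4g2 and Eif4g3 (scaffolds). The scaffold gene Eif4g1 was not among the genes found by the rule. The largest change was that of Eif4a2, which had 6.65, 6.93, 7.34 and 7.26 at the surface and 6.62, 7.12, 6.63 and 6.89 at the crypt base. Those groups overlapped (change 0.23 ± 0.15, adjusted p = 0.380). Eif4a1, its close paralog, had a change of -0.20 ± 0.10 (adjusted p = 0.255). Dimmer probes of Eif4g2, Eif4e2, Eif4a2 and Eif4e3 that passed the filter had changes of 0.25, 0.21, 0.16 and 0.01. The probe used for Eif4g2 had a change of -0.14, of opposite sign. In the bright gene Eif4h the change was 0.04 ± 0.08, less than the spread between samples of a region. Eif4a3, a helicase of the exon junction complex and not of initiation, had 6.35, 6.71, 6.70 and 6.87 at the surface and 6.76, 6.64, 6.83 and 6.92 at the crypt base (change -0.13 ± 0.09, adjusted p = 0.424).

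The eIF4E-binding proteins, which block assembly of the cap complex, did not move together. Eif4ebp1 had 7.46, 7.54, 7.54 and 7.14 at the surface and 8.26, 7.84, 8.00 and 7.71 at the crypt base, and fell without overlap (change -0.53 ± 0.10, 1.45-fold lower, adjusted p = 0.0197). Eif4ebp3 had 7.06, 6.99, 7.45 and 7.52 at the surface and 6.52, 6.37, 6.42 and 6.88 at the crypt base. It rose without overlap by 0.71 ± 0.10 (1.63-fold, adjusted p = 0.0110). Eif4ebp2 had 7.23, 7.42, 6.87 and 6.10 at the surface and 6.82, 7.57, 7.85 and 6.25 at the crypt base. Its values spread more between numbers than between regions (change -0.22 ± 0.21, adjusted p = 0.560), and the sign turned without replicate 3 (0.036). Eif4enif1, which carries eIF4E into the nucleus, had a change of 0.01 ± 0.07. Eif4ebp1 did not pass without replicate 3 (adjusted p = 0.0577) or replicate 4 (0.0757), and Eif4ebp3 passed in both, but not without surface 4 in the unblocked fit (0.0597).

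Among the factors of subunit joining, Eif6 rose and Eif5 and Eif5b did not pass. Eif6 keeps the large subunit from joining too early and also acts in making that subunit. It had 9.45, 9.75, 10.07 and 9.94 at the surface and 9.01, 9.45, 9.72 and 9.77 at the crypt base. The groups overlapped, and the surface was higher in each pair by 0.17 to 0.44 (change 0.31 ± 0.07, adjusted p = 0.0389). A second probe of Eif6 had a change of 0.49. This call was lost without the block (adjusted p = 0.385), without replicate 2 (0.0697), replicate 3 (0.112) or replicate 4 (0.0789), with a random block (0.195) and with an intensity trend in the variance (0.0931). Eif5b, the GTPase that joins the subunits, had 8.95, 9.30, 8.23 and 7.61 at the surface and 8.75, 9.69, 9.26 and 7.80 at the crypt base. It was lowest in number 4 in both regions (change -0.35 ± 0.19, adjusted p = 0.283), and a second probe had a change of 0.14. Eif5, the partner that makes eIF2 split its bound GTP, had a change of 0.15 ± 0.08.

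**Figure D5:**
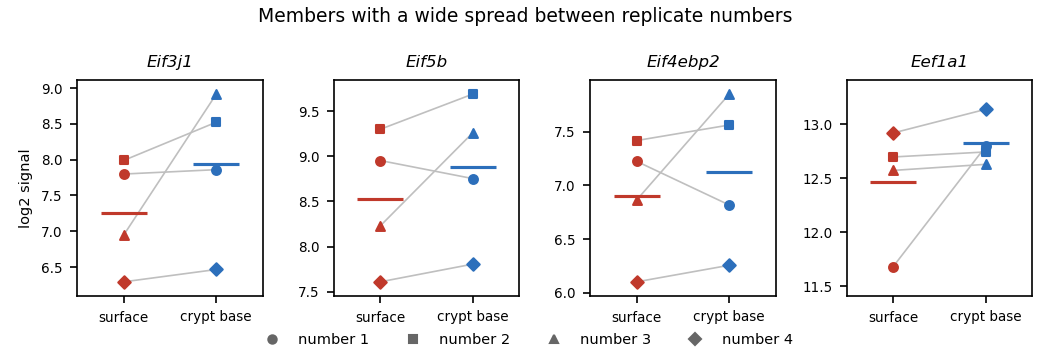
Log2 signal (vertical axis, a different range in each panel) of Eif3j1, Eif5b, Eif4ebp2 and Eef1a1 in surface samples (red, left) and crypt base samples (blue, right). Marker shapes are replicate numbers, grey lines join same-numbered samples and horizontal bars are group means; number 4 is lowest in both regions for Eif3j1, Eif5b and Eif4ebp2, pair 3 has the steepest line in these 3 genes, and surface 1 is low for Eef1a1.

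Probes of the same gene often differed in the size of the change. Of the 51 genes, 22 had a further probe that passed the same filter, and of these 26 probes 11 had a change of opposite sign to that of the probe used. Among the genes that passed, 6 had such probes, 8 in all. The sign was the same in 7 of the 8, with under 50% of the size in 4, and opposite in the dimmest probe of Eif3i. With the mean of a gene's probes in place of the brightest, 8 genes fell and 3 rose (6.22% of all genes tested fell and 8.7% rose), and Eef1b2 and Eef1d no longer passed (adjusted p = 0.109 and 0.0506).

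The sequence before the start of these genes was searched for CACGTG, the E-box bound by Myc, Max and Mxd proteins among others, a word known from promoters of genes of protein synthesis. The word reads the same on both strands and does not overlap itself. RefSeq promoters were given for 41 of the 55 genes, and 9 of them (22% of the 41) had a match in the 250 bases before an annotated start. The share was 6.86% of 27025 genes in the table, and 9.32% of the 9805 genes tested that were in it. Of the tested factor genes with a promoter, 2 of 5 that fell, 0 of 1 that rose and 6 of 32 that did not pass had a match. The 4 sequences below are shown because they set 2 genes that fell, Eif3f and Eif1b, beside 2 that did not pass, Eif4a1 and Eef2, all with 1 match, printed in capitals.
Eif3f: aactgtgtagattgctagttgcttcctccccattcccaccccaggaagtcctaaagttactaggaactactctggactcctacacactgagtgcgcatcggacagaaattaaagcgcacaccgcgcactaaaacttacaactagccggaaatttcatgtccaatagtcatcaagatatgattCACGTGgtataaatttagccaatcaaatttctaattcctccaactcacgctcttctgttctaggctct
Eif1b: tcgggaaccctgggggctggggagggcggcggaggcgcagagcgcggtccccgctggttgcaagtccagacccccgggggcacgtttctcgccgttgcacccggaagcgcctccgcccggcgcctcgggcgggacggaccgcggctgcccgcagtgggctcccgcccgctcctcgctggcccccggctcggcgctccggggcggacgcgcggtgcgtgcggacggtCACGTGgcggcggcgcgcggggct
Eif4a1: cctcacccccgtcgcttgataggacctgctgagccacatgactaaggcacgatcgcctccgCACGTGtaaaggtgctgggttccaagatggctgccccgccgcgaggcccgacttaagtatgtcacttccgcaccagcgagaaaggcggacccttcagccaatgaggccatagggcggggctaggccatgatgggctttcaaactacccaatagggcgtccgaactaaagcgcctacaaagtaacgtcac
Eef2: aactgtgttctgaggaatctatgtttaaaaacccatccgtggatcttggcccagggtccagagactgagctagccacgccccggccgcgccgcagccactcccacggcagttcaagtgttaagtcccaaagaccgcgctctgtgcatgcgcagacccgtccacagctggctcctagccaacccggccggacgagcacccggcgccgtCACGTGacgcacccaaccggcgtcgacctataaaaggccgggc
On build GRCm38.p6 these are chr7:108934165-108934414 (plus strand) for Eif3f, chr9:120492356-120492605 (plus strand) for Eif1b, chr11:69672424-69672673 (minus strand) for Eif4a1 and chr10:81176381-81176630 (plus strand) for Eef2, each ending at the base before the annotated start. The match began 68 bases before the start in Eif3f, 24 in Eif1b, 189 in Eif4a1 and 43 in Eef2. A match describes the letters only, and both genes that fell and genes that did not pass had it.

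Genes that act on the factors were read from 7 further lists, given as counts beside the 7.38% of all genes tested that fell and the 9.17% that rose. In the list of eIF2 kinases and the stress response they control, 4 of 11 genes tested rose and 0 fell, with a median change of 0.30. Eif2ak1, the heme-regulated kinase that inhibits eIF2, rose by 0.61 ± 0.09 (adjusted p = 0.0118), the glutathione-degrading enzyme gene Chac1 by 0.53 ± 0.09 and the stress factor gene Ddit3 by 0.43 ± 0.09. Of 12 genes around mTOR complex 1, the kinase complex that controls the 4E-BPs, 1 rose and 2 fell. Eef2k, the kinase that inhibits eEF2, rose by 0.69 ± 0.10 (adjusted p = 0.0122) and was higher at the surface in every pair, by 0.43 to 0.99. The mTORC1 subunit genes Akt1s1 and Mlst8 had changes of -0.48 ± 0.09 and -0.45 ± 0.11 (adjusted p = 0.0236 and 0.0415).

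Genes of termination, recycling and reinitiation and genes of factor modification had more falls than rises. Of 14 genes of termination, recycling and reinitiation 0 rose and 3 fell, with a median change of -0.15. The release factor genes Etf1 and Gspt1 changed by -0.41 ± 0.09 and -0.37 ± 0.07, and the reinitiation gene Mcts1 by -0.32 ± 0.07. Of 12 genes that modify eEF1A, eEF2 and eIF5A, 0 rose and 3 fell, with a median of -0.20. The genes that fell were the eEF1A methyltransferase genes Eef1aknmt (-0.56 ± 0.11) and Eef1akmt1 (-0.40 ± 0.07) and Dph5 (-0.39 ± 0.08), which takes part in making the diphthamide residue of eEF2. Of 12 genes of the poly(A)-binding and cap-linked proteins 0 passed in limma and 2 had an unadjusted p under 0.05. Their median change was -0.12. Over all 12146 genes tested, 3747 had an unadjusted p under 0.05 in limma. In 18 genes of the cytosolic aminoacyl-tRNA synthetases, which charge the tRNAs that eEF1A carries, 0 rose and 3 fell (median -0.17), namely Farsb (-0.79 ± 0.13), Lars (-0.55 ± 0.12) and Nars (-0.33 ± 0.07). Of 13 mitochondrial translation factors 1 rose and 2 fell (median -0.15). Tufm, the mitochondrial counterpart of eEF1A, fell by 0.62 ± 0.11 and Mrpl58 by 0.37 ± 0.09, while Mtif3 rose by 0.29 ± 0.06, a sign that turned with the mean over its probes (-0.047). Over the 7 lists 19 genes passed, 11 without the block, 0 without replicate 1, 19 without replicate 2, 4 without replicate 3 and 2 without replicate 4.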

How the data were processed

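The authors deposited log2 signals of 46632 probes on 8 Illumina bead arrays. GenomeStudio appears among the tools of the submitters' processing notes, and no source used here gives the normalization or background steps. The sorted values of the 8 arrays differed by less than 0.01 at 99.0% of ranks, so these log2 values had been equalised before they were deposited. Another deposited table, of signals and detection values, has 16 columns of per-sample values whose headers name no sample, and none was used. The filter planned on detection was therefore replaced, with results known, by one on the log2 signals themselves.

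The platform annotation pairs 29976 probes with a single gene symbol, 10 with several and 16646 with none. A gene was read from its brightest probe, and 12146 genes above their array's median signal (5.31) on 4 or more arrays entered the test. limma 3.58.1 (R 4.3.3, with statmod 1.5.0 for random effects) gave surface minus crypt base, two-sided, blocked on the replicate number as a fixed effect, with Benjamini-Hochberg adjustment over those 12146 genes at 0.05. The fit had 3 residual and 2.98 prior degrees of freedom and was run on simulated data. The changes planted there were larger than any change of the factor genes, so that run does not bear on changes of the size reported. Precision is limited by the number of arrays.

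The block rests on the design text, by which each mouse gave both samples; no label says that the number marks the mouse. Across genes, deviations from the group means correlated at r = 0.43, 0.38, -0.05 and 0.47 in same-numbered samples 1 to 4, and at -0.47 to 0.30 in unlike numbers. Over the factor genes alone, same-numbered samples correlated at 0.49, 0.54, -0.36 and 0.89, so the samples numbered 3 did not deviate together.

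The members, the gene lists and the rule for naming genes were chosen with earlier results of these data known. The rule gave sample values to the 12 largest falls and 8 largest rises past the threshold, to the largest change of each role and to the eEF1A, 4E-BP and eIF5A genes. Of each other list it named the 3 largest changes in each direction past the threshold and, of marker lists, the 2 brightest genes. Of these marker genes the text gives only Krt8 and Cdh1 of the epithelium and Laptm5 of the leukocytes. Laptm5 had a change of -0.19 ± 0.21 and did not pass. Eif3j1, Eif3k, Eif3l, Eef2, Eif2b1, Epcam, Krt20, Lgr5, Ascl2 and the sex-linked genes were added after their values were seen. Alternatives changed the block, probe choice, signal filter, scaling, variance model, array weights and the samples used. Promoters are RefSeq sequences of build GRCm38.p6.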

Additional observations from a re-analysis of the deposited data

Results flagged for a closer look

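Values far from the other 3 samples of their group, by Dixon's test at the 95% level, were found in 5 of 126 groups checked, where chance marks about 1 in 20. Eif2s3y was at 8.93 in surface 4, with the next value at 5.03, and at 8.76 in crypt base 4, with the next at 5.15. Eef1e1, a dim gene, was at 5.32 in surface 1, below the other values of 5.64 to 5.69. Mlst8 was at 8.44 in crypt base 2, below the other values of 9.02 to 9.13, and its pairs differed least in pair 2 (-0.08). Lars was at 9.82 in crypt base 3, above the other values of 9.60 to 9.64.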

How the results depend on the processing

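The counts of factor genes that fell and rose were 10 and 3. With no replicate block they were 5 and 2, the count over the other 7 lists was 11 in place of 19, and that over all genes 1218 in place of 2010, and 7 of the 13 factor genes passed. Leaving out each replicate in turn gave 0 to 14 falls, 0 to 2 rises, 0 to 19 genes of the other lists and 0 to 2295 over all genes. Without surface replicate 4 alone, the blocked fit equals that without replicate 4, with 1 fall, 2 genes of the other lists and 592 over all genes. A setting added after seeing the data left that sample out and used no replicate block. It gave 4 falls and 1 rise, with 4 and 851 called in the other lists and over all genes. Of all genes tested, 2.87% fell and 4.13% rose in that fit. The random block, probe mean, both other signal filters, centring, damping, variance trend and array weights kept each of these counts within 1.5 times. The median change of the factor genes lay between -0.18 and -0.11 throughout. Signs turned for Eif4ebp2, Laptm5 and Eif2s3x-ps1 without surface replicate 4 and no block (0.047, 0.079 and -0.034) and when single replicates were left out (ranges -0.43 to 0.036, -0.40 to 0.059 and -0.058 to 0.11), for Eef1e1 when single replicates were left out (range -0.085 to 0.0094), and for Mtif3 with the probe mean (-0.047). The causes were not tested. In 8 of the 51 genes the mean signal lay within 0.5 log2 units of the median of all probes, which limits the size of change that can be seen.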
